A study of Mus musculus with 6 samples.

Results

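The 40 genes described here encode the machinery of the cell cycle and of DNA replication: cyclins and their kinases, the replicative helicase and clamp, enzymes of deoxynucleotide synthesis, and proteins of the spindle, the kinetochore and the mitotic chromosome. They were chosen by symbol from 24411 genes in the tables, and 40 of 40 symbols were found. RNA was sequenced from the corpus callosum, the tract of axons that joins the cortical hemispheres, of mouse brains of the B6 strain on postnatal day 4. The study compared 3 libraries of mice with Mettl14 conditionally knocked out (cKO) with 3 wild-type (WT) libraries; Mettl14 is part of the enzyme that methylates adenosines in messenger RNA (m6A), and no other allele, agent or treatment is named for either group. The promoter or cell type that drives the deletion, the sex of the animals and any pooling were not given in the sources used here. The stated question of the series was what m6A contributes in developing axons, for which the tissue was dissected as rich in axons.

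A cell enters division when cyclins of the D type, with Cdk4 or Cdk6, and then cyclin E with Cdk2 release the E2F transcription factors from the retinoblastoma proteins. The MCM proteins are loaded on chromatin as a ring of subunits and unwind DNA in S phase, while the Pcna clamp holds the polymerases on the template. Cyclin A, cyclin B and Cdk1 then drive the cell into mitosis, where the spindle checkpoint holds back the anaphase-promoting complex until the chromosomes are attached. Axons and mature neurons do not divide, whereas white matter of the first postnatal week holds dividing precursors of oligodendrocytes and astrocytes. Stmn1, the last member, encodes stathmin, a protein that destabilises microtubules and is also abundant in developing neurons.

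The libraries held 670462 to 1208382 expected counts in the cKO group and 843647 to 1268430 in the WT group, with 10113 to 11110 genes above 0. At this depth 3 counts corresponded to 2.41 to 4.24 CPM (counts-per-million, on library sizes scaled by the TMM method). The libraries numbered 2 were the deepest and had the shortest mean fragments of their groups, at 292.7 bases in cKO and 304.3 bases in WT. Mettl14 itself had 2, 7 and 2 counts in cKO and 11, 8 and 5 counts in WT, so its level overlapped between the groups and was close to the floor. Xist had 2323 to 4618 counts in the 3 cKO libraries and 0 counts in the 3 WT libraries, and the Y-linked Eif2s3y had 0 counts in cKO and 51 to 80 counts in WT: the genotype and a sex-linked difference between the groups cannot be told apart. Against the label of callosal axon, 12 astrocyte markers summed to 3889 to 4341 CPM in cKO and 12752 to 14715 CPM in WT, and 12 markers of excitatory cortical neurons summed to 5552 to 6345 CPM in cKO and 423 to 969 CPM in WT. Markers of glia and of neurons were thus both present. Separate animals are not stated for the libraries, and the p-values here measure the spread between these 6 libraries, which may be technical.

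Most of these genes were measured lower in cKO, and 1 of them passed the test. All 40 members together summed to 4594, 4867 and 3515 CPM in cKO and 6163, 5828 and 7051 CPM in WT, and the WT mean was 1.47 times the cKO mean. Over the 39 members other than Stmn1, left out after its values were seen because it outweighed the rest, the summed level was 1228, 1981 and 902 CPM in cKO and 3668, 4133 and 4568 CPM in WT. The highest cKO sum lay below the lowest WT sum, and the WT mean was 3.01 times the cKO mean (1370 ± 553 CPM in cKO and 4123 ± 450 CPM in WT, SD, n = 3 each). Ccnd2 made up much of the sum of cKO replicate 2; without it, the 38 remaining members summed to 1143, 1113 and 874 CPM in cKO and 2715, 2715 and 2830 CPM in WT. In bulk tissue, fewer cells of a type and less RNA per cell cannot be told apart.

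Of the 40 members, 23 passed the filter on low counts (filterByExpr, about 11.68 CPM in 3 or more libraries), 8 of them in all 6 libraries and 2 of them, Ccna2 and Bub1, through the WT libraries only. The other 17 are described by their counts alone. Among the 23 that passed, 22 had a negative log2 fold change (cKO over WT) and Stmn1 a positive one, against 46.1% of all 5918 genes tested that were negative. Their median log2 fold change was −1.32, beside 0.07 over all genes tested. The median of the members minus that of all genes was −1.39 with TMM scaling and −1.46 with upper-quartile scaling, which moved the median of all genes to −0.22.

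A gene was called at an adjusted p below 0.05 in edgeR's quasi-likelihood test with Benjamini-Hochberg adjustment over all genes tested. Ccna2 was the 1 member called lower (0.422% of all genes were called lower), and 0 members were called higher (0.49% of all genes). At an unadjusted p below 0.05, 7 members were lower, against 5.41% of all genes, and 0 were higher, against 7.16%. All 3 cKO libraries lay below all 3 WT libraries for 10 of the 23 members tested, against 9.45% of all genes, and above them for Stmn1 alone among those tested, against 10.4%. DESeq2, another count model, called 5 members lower (Bub1, Ccna2, Mcm3, Mcm5 and Top2a) and 3.02% of all genes lower, whereas limma-voom called only Ccna2, and 0.338% of all genes lower. No members were called higher by DESeq2 or limma-voom, which called 4.22% and 0.372% of all genes higher.

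**Figure D1:**
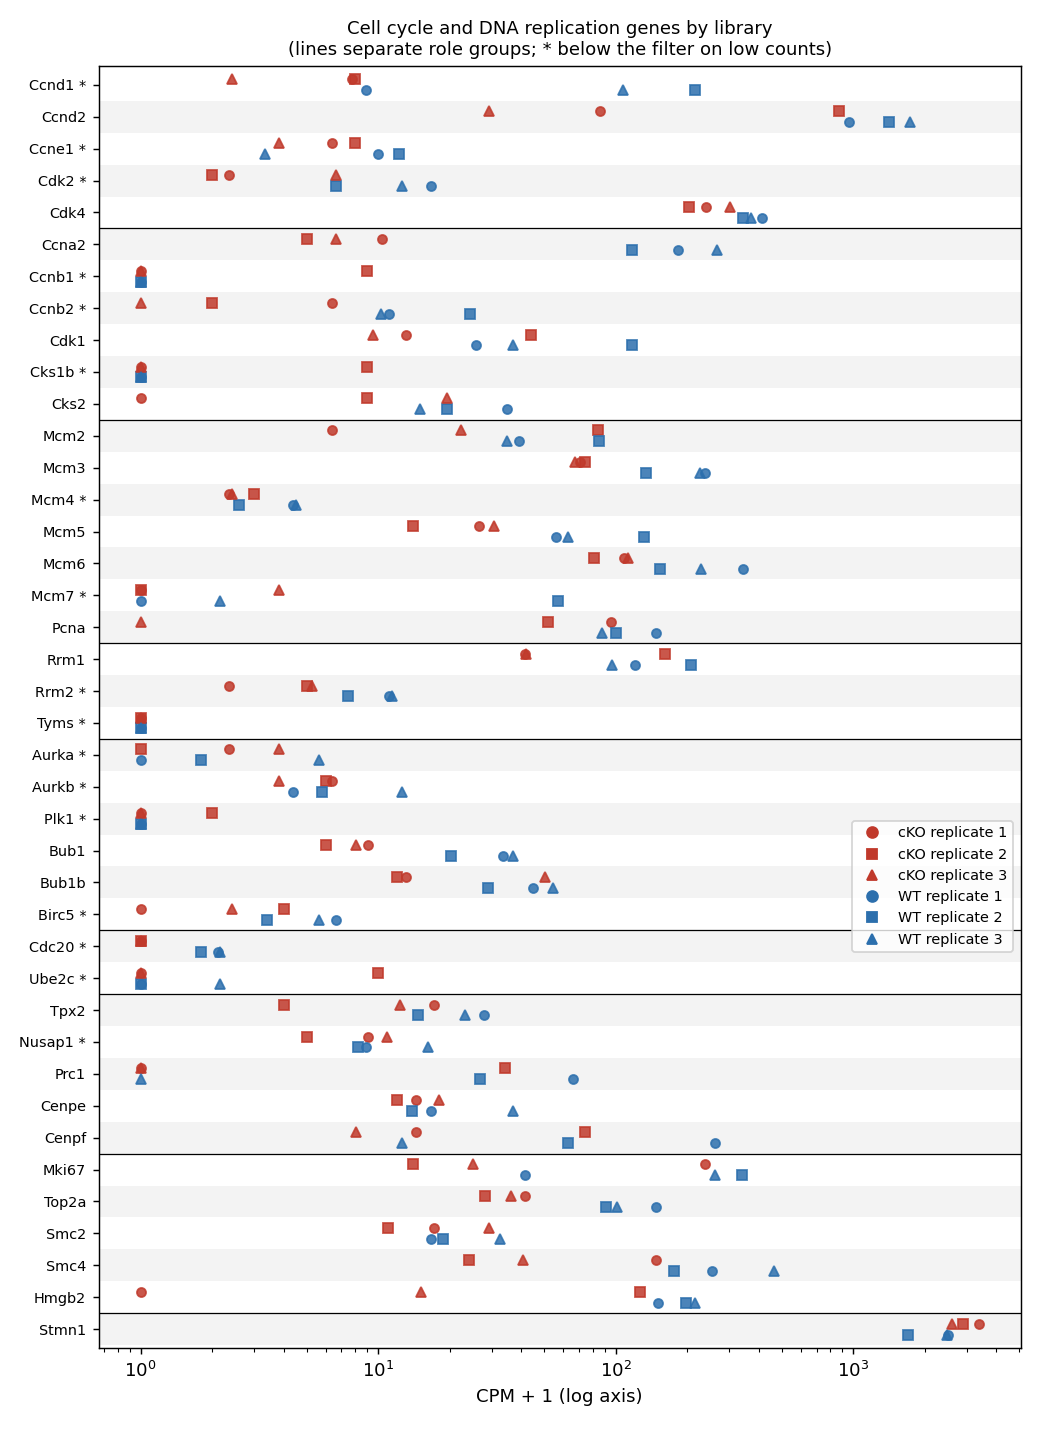
Level of each of the 40 genes in each library, as CPM + 1 on a log axis, with cKO libraries in red above WT libraries in blue, and lines between role groups; a star marks the 17 genes below the filter on low counts. Ccna2 stands apart, at 4.0 to 9.41 CPM in cKO and 116 to 267 CPM in WT, while Stmn1 lies higher in the cKO libraries.

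The promoters of 4 genes are printed because they carry the sequence words that are textbook features of the cell cycle genes whose data are described next: Mcm6 and Mcm5 for replication, Cdk1 and Top2a for mitosis. Each is the stretch of 250 bases before the gene start used in a table of RefSeq promoters (build GRCm38.p6), written 5′ to 3′ on the strand of the gene, with the words found in capitals. Mcm6 lies on the minus strand at chr1:128359706-128359955 and Mcm5 on the plus strand at chr8:75109259-75109508. Cdk1 lies on the minus strand at chr10:69352913-69353162 and Top2a on the minus strand at chr11:99024190-99024439. RefSeq's outer gene ends, at 75109468 for Mcm5 and 99024199 for Top2a, lie inside these windows, so the bases nearest the start can be transcribed.
Mcm6: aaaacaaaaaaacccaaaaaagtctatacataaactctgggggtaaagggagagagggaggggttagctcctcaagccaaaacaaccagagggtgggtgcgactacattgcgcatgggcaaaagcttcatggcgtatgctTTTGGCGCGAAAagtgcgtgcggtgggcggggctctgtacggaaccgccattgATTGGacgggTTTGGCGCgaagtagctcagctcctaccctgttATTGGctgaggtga
Mcm5: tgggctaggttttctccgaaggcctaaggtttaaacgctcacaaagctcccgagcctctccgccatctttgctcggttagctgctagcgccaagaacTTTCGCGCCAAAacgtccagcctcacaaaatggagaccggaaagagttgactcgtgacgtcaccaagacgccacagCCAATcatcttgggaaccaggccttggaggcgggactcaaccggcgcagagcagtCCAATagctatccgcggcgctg
Cdk1: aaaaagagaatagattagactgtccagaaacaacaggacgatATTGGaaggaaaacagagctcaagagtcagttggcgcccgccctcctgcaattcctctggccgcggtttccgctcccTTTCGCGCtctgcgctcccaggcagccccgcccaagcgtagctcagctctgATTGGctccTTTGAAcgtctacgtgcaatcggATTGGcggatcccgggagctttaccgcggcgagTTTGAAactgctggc
Top2a: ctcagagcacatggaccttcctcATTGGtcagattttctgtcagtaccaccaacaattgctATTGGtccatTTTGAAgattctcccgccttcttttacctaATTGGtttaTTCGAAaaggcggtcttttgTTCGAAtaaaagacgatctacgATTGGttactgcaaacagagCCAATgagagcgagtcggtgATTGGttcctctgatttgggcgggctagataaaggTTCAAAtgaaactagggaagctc

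The words searched, on both strands, were the cell cycle homology region (CHR) as TTTGAA or TTCGAA, the CCAAT box as CCAAT, and E2F sites as TTTCCCGC, TTTGGCGC, TTTCGCGC or TTTGCCGC. A word on the opposite strand appears as its reverse complement. Top2a held 4 CHR words and 6 CCAAT boxes, and Cdk1 held 2 CHR words, 3 CCAAT boxes and 1 E2F word. Mcm6 held 3 E2F words and 2 CCAAT boxes and Mcm5 held 2 of each; 2 of the E2F words overlap each other in both genes. Neither of these MCM promoters held a CHR word in this window.

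RefSeq promoters were matched for 32 of the 40 members, and Ccnd1, Ccnd2, Ccna2, Mcm4, Aurkb, Tpx2, Smc4 and Stmn1 had no entry in the table used. A CCAAT box was found in 27 of the 32 (84.4%) and in 33.8% of all 32851 promoters. A CHR word was found in 13 (40.6%), against 17.1% of all promoters, and an E2F word in 5 (15.6%), against 1.86%. A member was counted if any of its promoters held the word, whereas the share of all promoters was taken per promoter. Mcm7 and Prc1 had 2 promoters each, which can only raise the share of the members. The CHR word was found in 11 of 20 members that act from S phase to mitosis (55.0%) and in 2 of 9 replication and nucleotide members (22.2%), while the E2F word was found in 1 of those 20 (5.0%) and in 3 of those 9 (33.3%). A match is a description of letters and not evidence of a bound site.

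Among the G1 cyclins and kinases, both members that passed the filter were measured lower in cKO and neither passed the test. Ccnd2, cyclin D2, which partners Cdk4 and Cdk6, had 84.7, 868 and 28.3 CPM in cKO and 954, 1418 and 1738 CPM in WT. Its cKO replicate 2 stood close to the WT range and the other cKO libraries far below it. It gave a log2 fold change of −2.06 in cKO (SE 1.14, edgeR adjusted p = 0.528), and −4.59 without cKO replicate 2. Each SE was derived from the fold change and its F statistic and so restates the p of the test.

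Cdk4, the kinase that cyclin D activates, was the most abundant of the group per length, at 331 ± 128 TPM in cKO and 502 ± 52.2 TPM in WT (transcripts-per-million, SD, n = 3 each). It had 239, 203 and 303 CPM in cKO and 413, 342 and 370 CPM in WT. Its groups did not overlap in CPM but did in TPM, and the difference was small (log2 fold change −0.60, SE 0.34, edgeR adjusted p = 0.544). Ccnd1, cyclin D1, did not pass the filter: it had 5, 7 and 1 counts in cKO and 7, 268 and 91 counts in WT, so WT replicate 1 was at the level of the cKO libraries. Cyclin E1 (Ccne1) had 2 to 7 counts in cKO and 2 to 14 counts in WT, and its kinase Cdk2 had 1 to 4 counts in cKO and 7 to 14 counts in WT.

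Ccna2 encodes cyclin A2, which activates Cdk2 in S phase and Cdk1 at the entry to mitosis; the gene lies on chr3:36564865-36573038 in RefSeq GRCm38.p6 and has 8 exons. It had 7, 4 and 4 counts in cKO and 162, 145 and 229 counts in WT. As CPM these were 9.41, 4.0 and 5.66 in cKO and 182, 116 and 267 in WT, with group means of 6.36 ± 2.77 CPM in cKO and 188 ± 75.3 CPM in WT (SD, n = 3 each). Every cKO library was far below every WT library, and Ccna2 fell by 4.87 on the log2 scale (SE 0.66, edgeR adjusted p = 0.0292). The fold change stayed between −5.30 and −4.54 in 19 alternative fits, of which 9 called the gene. Ccna2 passed the filter on low counts through its WT libraries only, so it entered the test because it was high there, and the call was lost without a filter (adjusted p = 0.0581) and with a filter of 1 CPM in 3 libraries (adjusted p = 0.0531). It was not called when any one of the 6 libraries was left out (adjusted p 0.0649 to 0.168), or without both libraries numbered 2 (adjusted p = 0.147).

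The other members of this group were counted at lower levels. Cdk1, the kinase that drives mitosis, had 12.1, 43.0 and 8.49 CPM in cKO and 24.7, 116 and 36.1 CPM in WT. Its highest cKO library exceeded its lowest WT library, and the value of −1.46 on the log2 scale (SE 0.86, edgeR adjusted p = 0.561) was −0.49 without WT replicate 2 and −2.51 without cKO replicate 2. Cks2, a small subunit that binds Cdk1, had the group's highest mean per length over all 6 libraries, at 34.3 ± 40.8 TPM in cKO and 79.2 ± 39.2 TPM in WT (SD, n = 3 each). In WT alone Ccna2 was higher, with 3.35 ± 1.31 TPM in cKO and 102 ± 34.1 TPM in WT. Cks2 had 0, 8 and 13 counts in cKO and 30, 23 and 12 counts in WT, so the groups overlapped (log2 fold change −1.32, SE 0.91, edgeR adjusted p = 0.639), and the value was −0.77 without cKO replicate 1 and −2.34 without cKO replicate 3.

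Cyclin B2 (Ccnb2) had 4, 1 and 0 counts in cKO and 9, 29 and 8 counts in WT, without overlap but below the filter. Cyclin B1 (Ccnb1) and Cks1b each had 8 counts in cKO replicate 2 and 0 in the other 5 libraries. The 6 members of the group summed to 26.9, 72.1 and 32.5 CPM in cKO and 250, 275 and 326 CPM in WT, so that the WT mean was 6.47 times the cKO mean, and most of the WT sum was Ccna2.

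The replicative helicase and clamp held 3 of the 7 members with an unadjusted p below 0.05, and none of its genes passed the adjusted test. Mcm3, a helicase subunit, had 69.9, 73.1 and 66.5 CPM in cKO and 237, 133 and 226 CPM in WT. The cKO libraries lay within a few CPM of each other and all below WT (log2 fold change −1.51, SE 0.46, edgeR adjusted p = 0.248; DESeq2 adjusted p = 0.00336). Mcm6, with the E2F words shown above, had 108, 80.1 and 112 CPM in cKO and 341, 153 and 228 CPM in WT, again without overlap (log2 fold change −1.27, SE 0.48, edgeR adjusted p = 0.348). Mcm5 had 25.5, 13.0 and 29.7 CPM in cKO and 55.0, 131 and 61.7 CPM in WT, and its groups did not overlap either (log2 fold change −1.86, SE 0.58, edgeR adjusted p = 0.263; DESeq2 adjusted p = 0.0245). Without both libraries numbered 2 the value for Mcm5 was −1.07.

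Mcm2, another subunit, had 5.38, 83.1 and 21.2 CPM in cKO and 38.2, 84.3 and 33.8 CPM in WT. Its cKO replicate 2 was as high as the highest WT library, and the value of −0.50 on the log2 scale (SE 0.93, edgeR adjusted p = 0.911) was 0.04 without WT replicate 2, −0.06 without cKO replicate 1, −0.22 without cKO replicate 3 and −1.98 without cKO replicate 2. Mcm4 had 1 to 2 counts in cKO and 2 to 3 counts in WT. Mcm7 had 0, 0 and 2 counts in cKO and 0, 70 and 1 counts in WT, nearly all in WT replicate 2.

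The helicase is assembled from one copy of each MCM subunit, so their levels per length are of interest side by side. In cKO the mean levels were 51.8 ± 15.7 TPM for Mcm6, 35.9 ± 4.49 TPM for Mcm3, 15.3 ± 15.8 TPM for Mcm2, 9.94 ± 5.01 TPM for Mcm5, 0.72 ± 1.25 TPM for Mcm7 and 0.637 ± 0.131 TPM for Mcm4. In WT they were 127 ± 50.2 TPM for Mcm6, 105 ± 26.8 TPM for Mcm3, 36.8 ± 21.0 TPM for Mcm5, 23.9 ± 14.3 TPM for Mcm2, 13.3 ± 22.5 TPM for Mcm7 and 1.17 ± 0.388 TPM for Mcm4 (SD, n = 3 each). The libraries' ranges of Mcm6 and Mcm3 overlapped in both groups, and so did those of Mcm5 and Mcm2. Pcna, the clamp, had the highest level of the group per length, at 61.9 ± 60.8 TPM in cKO and 162 ± 50.2 TPM in WT. It had 70, 51 and 0 counts in cKO and 130, 123 and 74 counts in WT, so that cKO replicate 3 had no reads of it (log2 fold change −1.19, SE 1.29, edgeR adjusted p = 0.802, −0.59 without that library and −2.20 without cKO replicate 1).

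**Figure D2:**
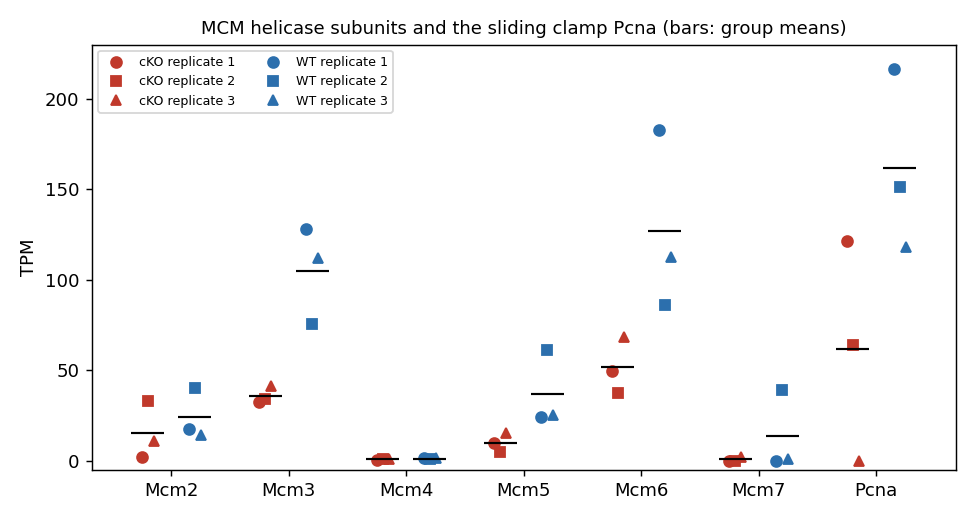
Level of the 6 MCM helicase subunits and of Pcna in each library, in TPM on a linear axis, with cKO in red left of WT in blue and bars at the group means. Mcm3, Mcm5 and Mcm6 have all cKO points below all WT points, whereas Mcm2 and Pcna overlap and Mcm4 lies near 0 in every library.

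Deoxynucleotide synthesis was represented by Rrm1, the large subunit of ribonucleotide reductase, which had 40.3, 160 and 41.0 CPM in cKO and 119, 207 and 95.5 CPM in WT. The library numbered 2 was highest in both groups, the groups overlapped, and the log2 fold change was −0.80 (SE 0.72, edgeR adjusted p = 0.738). It was −1.79 without cKO replicate 2, −0.48 without cKO replicate 3 and −0.41 without WT replicate 2. Rrm2, the small subunit, had 1, 4 and 3 counts in cKO and 9, 8 and 9 counts in WT, without overlap but below the filter. Tyms, thymidylate synthase, had 0 counts in all 6 libraries, which allows up to 3 counts in each.

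Among the mitotic kinases and checkpoint genes, Bub1, a kinase of the spindle checkpoint, had the second-smallest p of all members. It had 6, 5 and 5 counts in cKO and 29, 24 and 31 counts in WT, or 8.07, 5.0 and 7.07 CPM in cKO and 32.6, 19.3 and 36.1 CPM in WT. The groups did not overlap (log2 fold change −2.11, SE 0.42), but edgeR's adjusted p was 0.115, with 0.00347 by DESeq2 and 0.227 by limma-voom. Bub1 likewise passed the filter through its WT libraries only. Bub1b, which encodes the checkpoint protein BubR1, had 12.1, 11.01 and 49.5 CPM in cKO and 43.8, 28.1 and 53.5 CPM in WT. Its cKO replicate 3 stood within the WT range, and the log2 fold change was −0.79 (SE 0.68, edgeR adjusted p = 0.721). It was −1.83 without cKO replicate 3, −0.45 without cKO replicate 2 and −0.48 without cKO replicate 1.

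The kinases Aurka, Aurkb and Plk1 and the Aurora B partner Birc5 (survivin) had 0 to 10 counts in any library and were not tested. Aurkb, the kinase of the chromosomal passenger complex, had 4, 5 and 2 counts in cKO and 3, 6 and 10 counts in WT, and Plk1 had 1 count in all. Of the anaphase-promoting complex, the activator Cdc20 had 0 counts in the 3 cKO libraries and 1 in each WT library, and the ubiquitin-conjugating enzyme Ube2c had 0, 9 and 0 counts in cKO and 0, 0 and 1 counts in WT. Differences of these genes were not detectable at this depth.

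Of the 5 genes of the spindle, kinetochore and midzone 4 were tested and none passed the test, and the groups of each overlapped in CPM. Tpx2, which nucleates spindle microtubules and activates Aurora A, had 16.1, 3.00 and 11.3 CPM in cKO and 27.0, 13.7 and 22.1 CPM in WT, with overlapping groups (log2 fold change −1.06, SE 0.60, edgeR adjusted p = 0.546, and −0.59 without cKO replicate 2). Prc1, which bundles midzone microtubules, was the most abundant of these per length, at 5.03 ± 8.72 TPM in cKO and 16.1 ± 17.2 TPM in WT. It had 0, 33 and 0 counts in cKO and 58, 32 and 0 counts in WT, and its log2 value of −1.37 (SE 1.70, edgeR adjusted p = 0.837) was −0.20 without WT replicate 1, −0.85 without cKO replicate 3 and −7.76 without cKO replicate 2.

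Cenpf, a large kinetochore protein, had 13.4, 73.1 and 7.07 CPM in cKO and 262, 61.9 and 11.6 CPM in WT. One WT library held most of its reads, and its log2 value of −1.82 (SE 1.28, edgeR adjusted p = 0.649) was −0.23 without WT replicate 1 and −3.42 without cKO replicate 2. Cenpe, a kinetochore motor, had 10 to 12 counts in cKO and 14 to 31 counts in WT (log2 fold change −0.63, SE 0.49, edgeR adjusted p = 0.686, and −0.06 without WT replicate 3). In CPM these were 11.01 to 16.97 in cKO and 12.9 to 36.1 in WT, with overlap. Nusap1, which binds spindle microtubules, had 4 to 7 counts in cKO and 7 to 13 counts in WT and did not pass the filter.

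All 5 genes of the mitotic chromosome passed the filter, each with a negative log2 fold change that was not called by edgeR. Top2a, the topoisomerase that untangles sister chromatids, had 40.3, 27.0 and 35.4 CPM in cKO and 146, 90.0 and 100 CPM in WT. The groups did not overlap (log2 fold change −1.71, SE 0.48, edgeR adjusted p = 0.230; DESeq2 adjusted p = 0.00215). Hmgb2, a chromatin protein of dividing cells and the group's highest per length (24.2 ± 34.1 TPM in cKO and 108 ± 17.9 TPM in WT), had 0, 125 and 14.1 CPM in cKO and 149, 197 and 214 CPM in WT. Its cKO libraries ranged from none to nearly the WT level, and the log2 value of −2.00 (SE 1.45, edgeR adjusted p = 0.661) was −4.71 without cKO replicate 2.

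Smc4, a core subunit of condensin, had 147, 23.02 and 39.6 CPM in cKO and 253, 175 and 463 CPM in WT, without overlap (log2 fold change −2.09, SE 0.81, edgeR adjusted p = 0.362, and −3.28 without cKO replicate 1). Its partner Smc2 had 16.1, 10.01 and 28.3 CPM in cKO and 15.7, 17.7 and 31.4 CPM in WT, so the same complex held one subunit with separate groups and another with overlapping ones (log2 fold change −0.26, SE 0.51, edgeR adjusted p = 0.913). Whether the 2 subunits differed in their change was not tested. Mki67, the Ki-67 antigen used as the standard mark of cycling cells, had 237, 13.0 and 24.0 CPM in cKO and 40.4, 337 and 261 CPM in WT. One library of each group lay in the range of the other group, and its log2 value of −1.22 (SE 1.24, edgeR adjusted p = 0.777) was −3.52 without cKO replicate 1, −0.70 without cKO replicate 2, −0.74 without cKO replicate 3 and −0.72 without WT replicate 2. Without both libraries numbered 2 it was −0.18.

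Stmn1 went the other way from the median of the members. It had 3367, 2887 and 2613 CPM in cKO and 2495, 1696 and 2483 CPM in WT, so its cKO libraries all lay above its WT libraries in CPM, though not in TPM. The log2 fold change was 0.41 (SE 0.21, edgeR adjusted p = 0.493), 0.25 without cKO replicate 1 or without WT replicate 2, and 0.06 with upper-quartile scaling; relative to the median of all genes these were 0.34 and 0.28. At 5293 ± 640 TPM in cKO and 4113 ± 746 TPM in WT it was the highest of the 40 per length, followed in WT by Cdk4 at 502 TPM, Ccnd2 at 342 TPM and Pcna at 162 TPM.

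**Figure D3:**
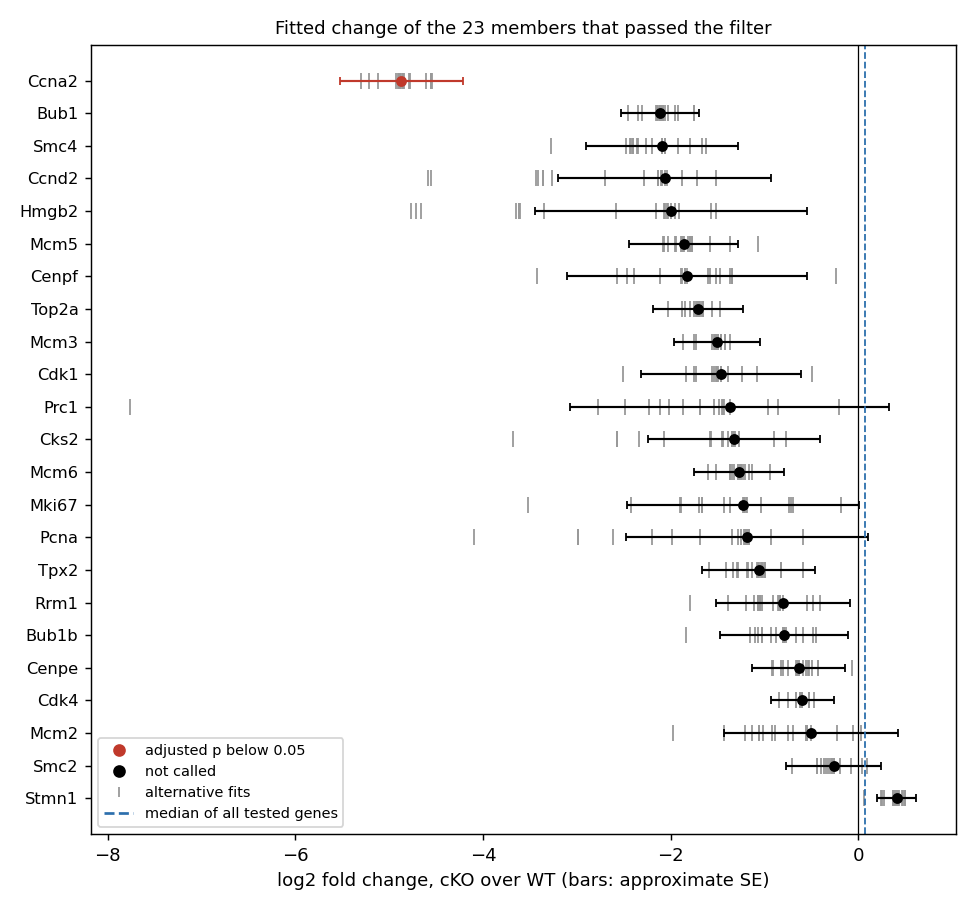
Fitted log2 fold change (cKO over WT) of the 23 genes that passed the filter, with bars of 1 SE, grey ticks for the alternative fits and a dashed line at the median of all genes tested. Ccna2, in red, is the only gene called, and the bars of Prc1, Mki67, Pcna, Mcm2 and Smc2 reach past 0.

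The 17 members below the filter held 112 counts in the 3 cKO libraries together and 641 in the 3 WT libraries, of which Ccnd1 alone gave 13 in cKO and 366 in WT. Their totals ran from 0 to 379 counts, and 7 had 10 counts or fewer. By mean CPM, 12 were lower and 4 higher in cKO. Fitted without a filter, 39 members gave 34 negative and 5 positive fold changes, with a median of −1.27, 10 at an unadjusted p below 0.05 and 0 called, while 49.3% of all 13302 genes so fitted were negative.

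The members spread widely between the cKO libraries. Among those that passed the filter, the highest library was a median of 4.21 times the lowest in cKO and 2.16 times in WT (after adding 1 CPM), against 2.25 times in cKO and 1.99 times in WT over all genes tested. The ratio exceeded 5 for 9 of the 23 in cKO (39.1%) and 3 in WT (13.0%), against 22.1% of all genes in cKO and 18.6% in WT. Low counts widen this ratio, and all genes were not matched to the members for level. Pcna, Hmgb2, Cks2 and Prc1 each had a cKO library with 0 counts. Each cKO library was also set against the WT library of the same number, without taking the number as a pairing. For each of the 3 numbers, 20 of 23 members were lower in cKO, against 50.6%, 44.2% and 49.6% of all genes. Other matchings of the same libraries were possible, and the 23 include Ccna2 and Bub1, which passed the filter through WT libraries only. The 3 counts thus describe the libraries and are not separate results. Between the libraries numbered 2, the median log2 ratio of the members was −0.92 and that of all genes 0.12. A part of depth in the result was not tested.

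Mitosis genes beyond the 40 showed the same direction by count. The list was chosen with earlier results of these data known. Of 60 listed, 27 were tested and 26 had a negative log2 fold change, with a median of −1.36. Lmnb1, lamin B1, was the positive one, and 46.1% of all genes tested were negative. By edgeR and limma-voom 0 were called, and DESeq2 called 12 lower, against 3.02% of all genes. At an unadjusted p below 0.05 in edgeR, 18 were lower, against 5.41% of all genes. The smallest p belonged to Cenpa, the histone H3 variant of centromeres, which had 3, 5 and 3 counts in cKO and 16, 58 and 25 counts in WT (log2 fold change −2.78, SE 0.49, edgeR adjusted p = 0.0755). Spc25, a subunit of the Ndc80 kinetochore complex, had 4, 4 and 6 counts in cKO and 20, 54 and 26 counts in WT (log2 fold change −2.43, SE 0.46, edgeR adjusted p = 0.105). Sapcd2, which acts on spindle orientation, had 3, 2 and 1 counts in cKO and 43, 105 and 12 counts in WT (log2 fold change −4.24, SE 0.83, edgeR adjusted p = 0.115), and Cdca8, borealin of the passenger complex, had 8, 17 and 15 counts in cKO and 53, 87 and 63 counts in WT (log2 fold change −2.04, SE 0.44, edgeR adjusted p = 0.144). All 3 cKO libraries lay below all 3 WT libraries for 20 of the 27 tested genes, against 9.45% of all genes. That count includes these 4 genes, which were chosen for their small p. Because the list itself was chosen with earlier results known, its counts describe it and are not independent support. Cenpa, Spc25 and Sapcd2 lay below the filter's 11.68 CPM in every cKO library, so they passed through their WT libraries only. How many of the other tested genes did so is not given here.

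Other replication genes were also mostly negative, with smaller values. Of 56 listed, 28 were tested and 25 had a negative log2 fold change, against 46.1% of all genes, with a median of −0.62. At an unadjusted p below 0.05, 3 were lower, against 5.41% of all genes, and edgeR, DESeq2 and limma-voom called 0. Pola1, the catalytic subunit of DNA polymerase alpha, had 3, 4 and 4 counts in cKO and 15, 15 and 11 counts in WT (log2 fold change −1.59, SE 0.37, edgeR adjusted p = 0.169). Pola1 passed the filter through its WT libraries only. Cdc45, which joins the MCM ring to form the active helicase, had 9, 7 and 12 counts in cKO and 33, 33 and 25 counts in WT (log2 fold change −1.37, SE 0.43, edgeR adjusted p = 0.266). Prim1, a primase subunit, had 15, 22 and 18 counts in cKO and 44, 43 and 46 counts in WT (log2 fold change −1.02, SE 0.39). Cdca7, a chromatin protein, had 0, 20 and 0 counts in cKO and 37, 78 and 48 counts in WT (log2 fold change −2.89, SE 1.28), and neither was called.

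The inhibitors of cyclin-dependent kinases and the retinoblastoma family gave few values: 4 of 16 were tested, 2 negative and 2 positive, and edgeR called 0. Rbl2, the pocket protein p130, had 4, 8 and 7 counts in cKO and 22, 79 and 23 counts in WT (log2 fold change −2.29, SE 0.54, edgeR adjusted p = 0.171), and DESeq2 called it lower. Rbl2 passed the filter through its WT libraries only. Cdkn1b, the inhibitor p27, had 3, 254 and 73 counts in cKO and 12, 113 and 8 counts in WT (log2 fold change 1.66, SE 1.40, edgeR adjusted p = 0.711). Btg2, an antiproliferative gene that the intermediate progenitor list also holds, had 6, 0 and 13 counts in cKO and 50, 25 and 0 counts in WT (log2 fold change −1.57, SE 1.46). Rb1, the retinoblastoma protein, had 31, 25 and 55 counts in cKO and 36, 37 and 37 counts in WT (log2 fold change 0.35, SE 0.53).

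Cyclins and kinases that share the family names but act outside division, in transcription or in neurons, were split in direction. Of 24 listed, 18 were tested, 7 were negative and 11 positive, with a median of 0.19, and edgeR called 0. At an unadjusted p below 0.05, 1 was lower and 3 were higher, against 5.41% and 7.16% of all genes. The list summed to 3879, 3445 and 3959 CPM in cKO and 1831, 2036 and 2226 CPM in WT, without overlap. Most of the difference between the group means came from 1 gene, Cdk5r1. Cdk5r1, which encodes p35, the activator of the neuronal kinase Cdk5, had 1132, 1177 and 937 counts in cKO and 0, 200 and 184 counts in WT (log2 fold change 3.42, SE 1.40, edgeR adjusted p = 0.386). Ccnl2, a cyclin of transcription and splicing, had 247, 257 and 384 counts in cKO and 50, 207 and 82 counts in WT (log2 fold change 1.83, SE 0.56, edgeR adjusted p = 0.251) and was called higher by DESeq2. Cdk14 had 9, 21 and 25 counts in cKO and 39, 147 and 47 counts in WT (log2 fold change −1.66, SE 0.62). Ccng2 had 11, 79 and 215 counts in cKO and 6, 42 and 10 counts in WT (log2 fold change 2.91, SE 1.17), and neither was called.

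Markers of several cell types moved with the cell cycle genes, and their part in the result was not tested. Radial glia and ventricular progenitor markers, of which 10 of 13 were tested and 10 negative, summed to 2939 to 3507 CPM in cKO and 6834 to 9758 CPM in WT, and Fabp7 was called lower (log2 fold change −1.70, edgeR adjusted p = 0.0339). Oligodendrocyte precursor markers summed to 549 to 1314 CPM in cKO and 4107 to 4564 CPM in WT. Of these, Pdgfra was called lower, with 15, 31 and 8 counts in cKO and 764, 989 and 862 counts in WT (log2 fold change −5.39, edgeR adjusted p = 0.0114), and Sox10, Gpr17 and Matn4 were at 0 in cKO. Cells of both kinds can divide at this age, but how many did so was not measured. The WT mean was 2.63 times the cKO mean for the radial glia list and 3.42 times for the astrocyte list.

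Lists of other cell types differed too. Over all genes, 0.422% were called lower and 0.49% higher by edgeR. The 10 markers of myelinating oligodendrocytes summed to 2.00 to 10.8 CPM in cKO and 2552 to 4125 CPM in WT. Of these, 6 of 6 tested genes were called lower, and Mag, Mog, Myrf, Enpp6 and Cldn11 were at 0 in cKO. The whole list lay below the filter's 11.68 CPM in every cKO library, so its tested genes passed through their WT libraries only. Of 12 astrocyte markers, summed above, 10 were tested and 10 had a negative log2 fold change, with Aldoc, Apoe and Ednrb among those called lower. Of 12 excitatory neuron markers 8 were tested, 6 were positive and 2 negative, and 1, Neurod2, was called higher. Neuroblast and interneuron markers summed to 489, 636 and 21.2 CPM in cKO and 1025, 1178 and 1105 CPM in WT, with 0 called.

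The intermediate progenitor list summed to 448, 545 and 208 CPM in cKO and 91.0, 225 and 340 CPM in WT, with overlap. Its defining gene Eomes had 1, 25 and 4 counts in cKO and 2 in each WT library, and Neurog2 was at 0 in all 6 libraries. The sums thus came mostly from the list's other genes and do not measure a dividing cell type. Of its 6 genes 3 were tested and 0 called by edgeR, and Insm1 (log2 fold change 5.06, SE 1.58) was called higher by DESeq2. Microglia markers summed to 130 to 487 CPM in cKO and 228 to 726 CPM in WT, with Tmem119 at 0 throughout. Endothelial markers summed to 91.9 to 188 CPM in cKO and 161 to 458 CPM in WT, with Cldn5 at 0 throughout. Mural markers summed to 37.6 to 110 CPM in cKO and 108 to 210 CPM in WT. Ependymal markers were near 0, at 1.41 to 2.69 CPM in cKO and 4.49 to 12.8 CPM in WT, with Foxj1 at 0 throughout, and erythroid genes ranged from 204 to 1917 CPM in cKO and from 240 to 2419 CPM in WT.

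**Figure D4:**
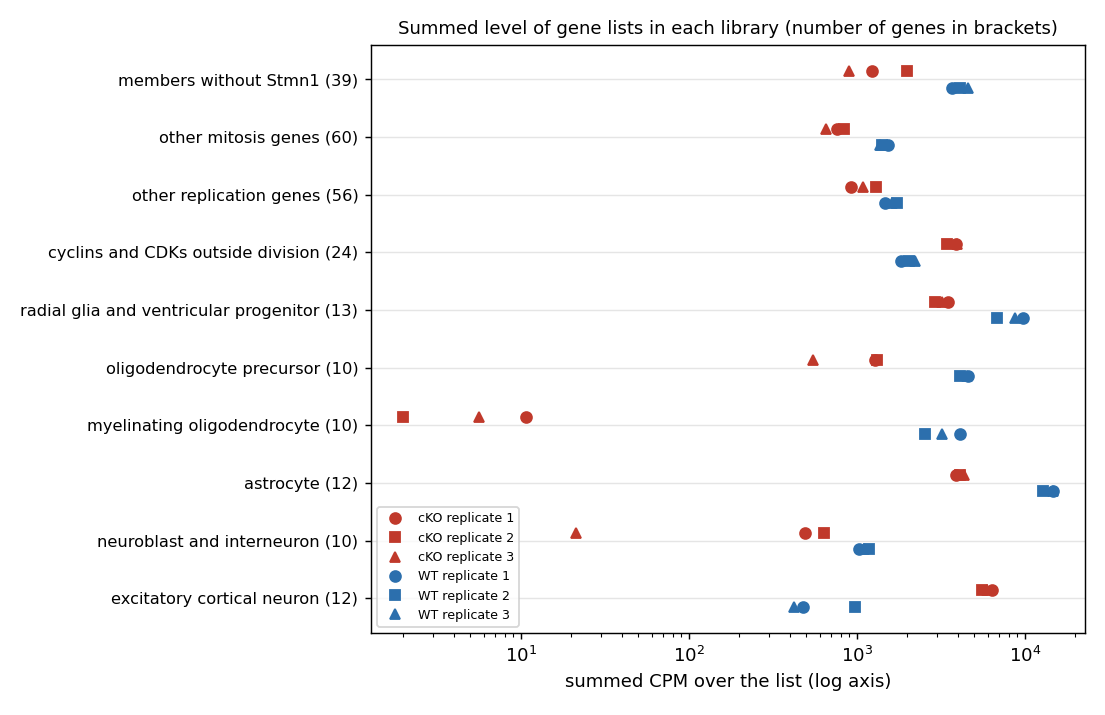
Summed CPM of each gene list in each library, on a log axis, with cKO in red above WT in blue and the number of genes in brackets. Of the lists drawn, the excitatory neuron list and the cyclins and kinases outside division lie higher in cKO, and the others lie lower in cKO, without overlap. Most of the difference in the list of cyclins and kinases outside division came from Cdk5r1.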

How the data were processed

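RNA was sequenced in 3 cKO and 3 WT libraries, grouped by the sample titles. Per library the authors deposited a single table of transcript estimates from RSEM 1.3.3, with STAR 2.7.10b and build mm10 also named, per the submitters' processing notes. Which annotation, strand option and filters were used is not given in the sources used here. The libraries were made from bead-selected polyadenylated RNA using a kit without strand marking, per the labels' protocols. The deposited expected counts are RSEM's estimated fragments for a transcript, often not whole. TPM in the deposited tables, per the file headers, is a level scaled for length and library size.

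Expected counts were summed over the transcripts of a symbol and rounded to whole numbers. The main test was edgeR 4.0.16 (R 4.3.3; filterByExpr with a minimum count of 10, TMM scaling, quasi-likelihood F test, Benjamini-Hochberg over 5918 genes, called at 0.05), with both groups and no covariate. Alternatives were other scalings and filters, DESeq2 1.42.0, limma-voom (limma 3.58.1), limma on log2(TPM + 1) and log2(TPM + 0.1), the replicate number or depth as a term, and leaving out libraries. The common biological coefficient of variation was 0.657. Data were simulated for this comparison with 200 genes changed before the filter on low counts, and 5747 genes passed it. Among the changed genes that passed, the test recovered 3 of 47 at a true log2 change of 2 in size. It recovered 31 of 46 at 4, 38 of 46 at 6 and 47 of 47 at 8, with 4 false calls. Changed genes that failed the filter are left out of these counts.

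The members and all lists were chosen with earlier results of these data known. Per-library values were given for members called, for the most abundant and the smallest-p member of each role group and for those of opposite sign to the median, and, of each pathway list, the 4 genes with the smallest p; other members given in full were chosen after their values were seen. RefSeq lists near copies of Ccnb1, Stmn1 and Tyms, so reads shared with those copies make these values uncertain. The floor of 3 counts covers counting error only. Promoter sequences are from RefSeq (GRCm38.p6), the assembly that mm10 names.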

Additional observations from a re-analysis of the deposited data

How the results depend on the processing

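The count of members called lower was 1 in the main test, 5 with DESeq2 and 0 without a filter, with a filter of 1 CPM in 3 libraries, with the replicate block, without both libraries numbered 2, and when each library was left out in turn (0 to 0). Over all genes, 25 were called lower and 29 higher. Without a filter these were 10 and 12, with the 1 CPM filter 10 and 12, with DESeq2 179 and 250, and with depth as a term 8 and 11. With the replicate block they were 0 and 1 (763 genes at an unadjusted p below 0.05), and without both libraries numbered 2 they were 0 and 0 (740 genes at an unadjusted p below 0.05). Leaving out each library gave 0 to 14 lower and 0 to 28 higher. The median of the members stayed between −1.69 and −0.93 in the alternatives run. Mcm2 turned to 0.0358 on the log2 scale without WT replicate 2 (lowest −1.98), and Smc2 to 0.04 without cKO replicate 2 and 0.10 without WT replicate 3 (range −0.71 to 0.10); the cause was not tested beyond the fewer samples. For single members, 418 values kept their direction and side of the threshold, 10 lost the call (all Ccna2), 4 gained it (Bub1, Mcm3, Mcm5 and Top2a with DESeq2) and 3 reversed. The replicate numbers were not taken to pair the libraries. The deviations of same-numbered libraries correlated at 0.064, 0.462 and 0.162, and cKO replicates 1 and 3 each correlated best with a WT library of another number. With 3 libraries a group these values cannot show that pairing is absent. The libraries numbered 2 had the highest correlation and shared greater depth and shorter fragments. With 3 libraries a group, a log2 change of about 2 was seldom recovered in simulated data, and 17 of the 40 members were too low to test.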

Other observations

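The 2 annotated transcripts of Bub1 were counted unequally in the groups. The first had 0.3, 0.21 and 0 expected counts in cKO and 29, 24 and 15.4 in WT, while the second had 5.7, 4.79 and 5 in cKO and 0, 0 and 15.6 in WT. The split between transcripts is an estimate by RSEM from few fragments and was not tested.

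Several members were counted in 1 library of a group only. Ccnb1, Cks1b, Ube2c and Prc1 had 8, 8, 9 and 33 counts in cKO replicate 2 and 0 in the other cKO libraries, and Mcm7 had 70 of its 71 WT counts in WT replicate 2. Among the inhibitors below the filter, Cdkn1c (p57) had 0, 2 and 1 counts in cKO and 8, 28 and 2 counts in WT. Its cKO replicate 2 and WT replicate 3 both had 2 counts, below the floor of 3 counts. These libraries differed in CPM through the scaling alone, so the groups were not separated.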
